A study of Drosophila melanogaster with 17 samples.

Results

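The Jonah genes of Drosophila melanogaster are a family of small serine endopeptidases of the chymotrypsin type, which cut proteins at internal bonds with a catalytic serine. The family was first described as dispersed genes transcribed in the gut, and its products are secreted into the midgut lumen to digest dietary protein. In the adult midgut such enzymes are known as products of enterocytes, the absorptive cells that arise from the progenitor cells. The 10 Jonah genes described here were taken by FlyBase symbol and mapped to the gene identifiers of a read count table of 17737 genes. All 10 were found, and all 10 were among the 11786 genes that passed the filter on low counts.

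RNA was sequenced from GFP-positive progenitor cells, the midgut stem cells and their undifferentiated daughters, sorted as small cells from adult virgin female flies. The knockdown genotype carried the esgts driver, which is temperature-sensitive and active in progenitor cells, together with an RNA interference construct against Notch, the receptor through which these cells choose their fate. The control genotype carried the esgts driver alone. Flies were kept for 5 days at 25 °C, given L. brevis or L. plantarum (Lactobacillus species of the fly gut) overnight or left germ-free, and moved to 29 °C for 5 days, so all groups share the driver and the temperature shift. The 6 groups were Notch RNAi and control flies with L. brevis (n = 3 each), Notch RNAi and control flies with L. plantarum (n = 3 each), and germ-free Notch RNAi flies (n = 3) and germ-free control flies (n = 2, another sample having been lost at RNA extraction). Each library pooled 100 guts, so a replicate is a pool and not an animal, and the knockdown acts only where the driver is on. The series describes the replicates as biological, and p-values measure the spread between these pools.

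Total counts were between 24192918 and 38237532 per library. Notch was at 52.7 to 82.9 CPM (counts scaled to a library total of 1e+06) over the 9 Notch RNAi libraries and at 166 to 224 CPM over the 8 control libraries, with no overlap. Among other progenitor genes, Sox21a, a transcription factor of progenitors, was present in all libraries, so the labelled cell type carried this marker. Its level was 188 to 234 CPM in Notch RNAi libraries and 257 to 383 CPM in control libraries. The progenitor marker sna ran the other way, at 61.3 to 116 CPM in Notch RNAi libraries and 6.50 to 17.0 CPM in control libraries. The gene klu, a factor of the enteroblast daughters, was at 7.54 to 13.9 CPM in Notch RNAi libraries and 203 to 281 CPM in control libraries. The sorted pools also contained RNA of 6 enterocyte markers (nub, Myo31DF, Myo61F, mex1, GATAe and Npc1b), none of them at 0 in any group. These 6 summed to 656 to 739 CPM in Notch RNAi flies and 713 to 886 CPM in control flies with L. brevis. With L. plantarum the sums were 790 to 1016 CPM in Notch RNAi flies and 866 to 1091 CPM in control flies. In germ-free flies the sums were 720 to 825 CPM in Notch RNAi flies and 983 to 1132 CPM in control flies, with no overlap. These sums hide differences between markers. With L. brevis, nub was at 18.0 to 24.3 CPM in Notch RNAi and 40.0 to 51.4 CPM in control libraries. Myo31DF was at 151 to 167 and 211 to 300 CPM, and mex1 at 52.3 to 75.0 and 90.5 to 107 CPM. Myo61F, GATAe and Npc1b overlapped. At an adjusted p under 0.05 (edgeR), 0 of the 6 were higher in Notch RNAi flies. Lower were 2 with L. brevis, 1 with L. plantarum and 3 in germ-free flies, beside 20.3%, 16.2% and 14.7% of all genes. The 7 enteroendocrine (hormone-producing) markers summed to 4319 to 5389 CPM over the Notch RNAi libraries and 3605 to 6151 CPM over the control libraries. The sum hides opposed changes between the markers. In each condition edgeR gave 4 of the 7 higher and 2 lower in Notch RNAi flies, at an adjusted p under 0.05. Their median log2 fold change was 0.89 with L. brevis, 1.44 with L. plantarum and 2.12 in germ-free flies. Over all genes tested, 42.6%, 33.8% and 32.2% passed in that order of conditions. Visceral muscle markers reached 914 CPM in 1 control library with L. brevis and stayed at or below 405 CPM in all others. The part of these markers in the Jonah results was not tested, and in bulk RNA a smaller number of expressing cells and less RNA per cell cannot be told apart.

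By annotation the 10 genes lie at 4 places of the BDGP6 assembly (Ensembl annotation, which may differ from the authors' build), and all are protein-coding. Jon25Bi (2L:4954279-4955144), Jon25Bii (2L:4952243-4953136) and Jon25Biii (2L:4949941-4950767) sit side by side on the minus strand within 5204 bases. Jon44E (2R:8691448-8692844, plus strand) stands alone and overlaps another gene, CG8586, so its counts are uncertain because the use of strand in counting is not given in the sources used here. Jon65Aiv (3L:6039155-6040135), Jon65Aiii (3L:6050757-6051690) and Jon65Aii (3L:6052321-6053215) are on the plus strand, each with 2 exons, and Jon65Ai (3L:6053493-6054443, minus strand, 1 exon) faces Jon65Aii across a gap of 277 bases. Jon66Ci (3L:8391540-8392377, plus strand) and Jon66Cii (3L:8392820-8393649, minus strand) face each other across 442 bases. Each counted feature is thus the exon sequence of a short gene, between 827 and 1397 bases long. Reads that could fit more than 1 family member may have been split in a way that was not examined here.

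Levels per length differed by more than 2 orders of magnitude among the members. Expressed as the mean of the 6 group means in CPM per kb of exon, Jon65Aiv stood at 2910 and Jon65Aiii at 2156. Next came Jon25Biii at 721, Jon25Bi at 328, Jon65Aii at 284 and Jon25Bii at 205 CPM per kb. The 4 least abundant were Jon65Ai at 69.8, Jon66Ci at 35.3, Jon44E at 22.8 and Jon66Cii at 13.9 CPM per kb. Genes of 1 cluster therefore lay far apart, as Jon65Aiv and Jon65Ai of the 65A cluster show. Jon65Aiii and Jon65Aiv together supplied between 61.9% and 85.1% of the CPM summed over the 10 genes.

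The sum over the 10 genes, which follows mainly those 2 genes, was 3759 ± 1298 CPM in Notch RNAi flies and 7358 ± 309 CPM in control flies with L. brevis (SD, n = 3 each). With L. plantarum it was 6001 ± 3095 CPM in Notch RNAi flies and 6267 ± 1131 CPM in control flies (SD, n = 3 each). In germ-free flies it was 3741 ± 518 CPM in Notch RNAi flies (SD, n = 3) and 8609 ± 4463 CPM in control flies (SD, n = 2). The libraries with L. brevis and the germ-free libraries did not overlap between the genotypes, whereas those with L. plantarum did. Across all libraries the sum lay between 2264 and 11765 CPM, or 0.226% to 1.18% of the scaled counts.

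**Figure D1:**
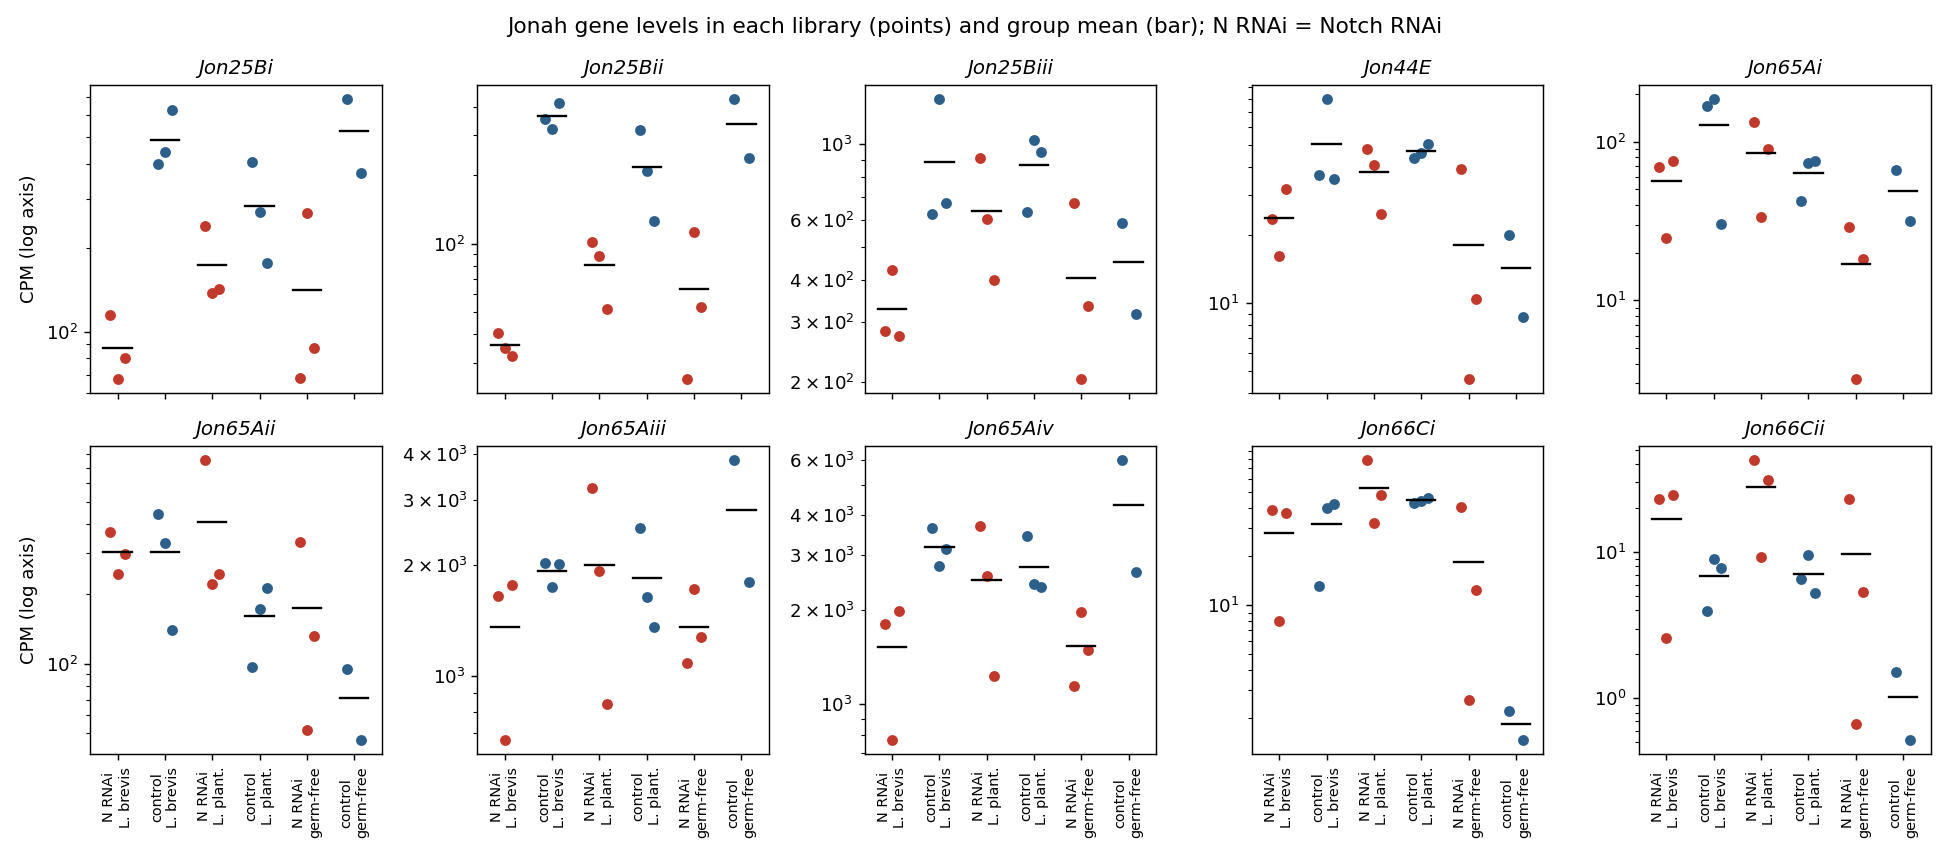
CPM of each Jonah gene in every library (points, log axis; Notch RNAi red, control blue) with the group mean as a bar, for the 6 groups along the x axis. Jon25Bii shows no overlap between Notch RNAi and control libraries in any of the 3 conditions, and Jon66Ci is lowest in germ-free control libraries at 1.47 and 2.21 CPM.

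The first question the design poses is how loss of Notch altered these genes in each bacterial condition. Jon25Bi and Jon25Bii, neighbouring protease genes of the 25B cluster, were lower in Notch RNAi libraries, and averaged over the conditions they were the members with the smallest p-values. With L. brevis, Jon25Bii was at 40.4, 34.9 and 32.0 CPM in Notch RNAi libraries, against 355, 322 and 418 CPM in control libraries. With L. plantarum it was at 102, 87.9 and 51.7 CPM in Notch RNAi libraries, against 316, 208 and 126 CPM in control libraries. Germ-free Notch RNAi libraries had 25.3, 112 and 52.7 CPM, against 434 and 239 CPM in germ-free control libraries. Every Notch RNAi library was thus below every control library of its own condition, with the narrowest gap under L. plantarum.

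The log2 fold change of Jon25Bii, Notch RNAi over control, was -3.35 with L. brevis (SE 0.52, adjusted p = 0.000261), -1.43 with L. plantarum (SE 0.49, adjusted p = 0.0397) and -2.41 in germ-free flies (SE 0.53, adjusted p = 0.0045). Unless another source is named, adjusted p-values are from the quasi-likelihood test of edgeR, adjusted by Benjamini-Hochberg over the 11786 genes. A member counts as called where its adjusted p is below 0.05. The call with L. plantarum was lost when any of 5 of its 6 libraries was left out, with adjusted p-values between 0.0513 and 0.152, and the germ-free call without control replicate 1 (adjusted p = 0.0515). Averaged over the conditions, Jon25Bii fell by 2.40 on the log2 scale (SE 0.30, adjusted p = 1.94e-05).

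Jon25Bi had 115, 67.3 and 80.2 CPM in Notch RNAi libraries with L. brevis, against 401, 443 and 625 CPM in control libraries. With L. plantarum the Notch RNAi libraries had 240.0, 137 and 143 CPM, against 406, 270.0 and 176 CPM in control libraries. Germ-free Notch RNAi libraries had 68.0, 266 and 87.1 CPM, against 686 and 371 CPM in germ-free control libraries. The groups were separate with L. brevis and in germ-free flies and overlapped with L. plantarum. Its log2 fold change was -2.48 with L. brevis (SE 0.53, adjusted p = 0.00242), -0.71 with L. plantarum (SE 0.50, adjusted p = 0.312) and -1.91 in germ-free flies (SE 0.55, adjusted p = 0.0201). The germ-free call was lost without control replicate 1 (adjusted p = 0.17), Notch RNAi replicate 1 (0.0585) or Notch RNAi replicate 3 (0.0715). Averaged over the conditions the log2 fold change was -1.70 (SE 0.30, adjusted p = 0.000417), and this was called whichever library was left out.

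Jon25Biii, the third gene of the cluster and its most abundant, was called between genotypes with L. brevis and in neither of the other conditions. There it had 282, 428 and 273 CPM in Notch RNAi libraries, against 624, 1361 and 670 CPM in control libraries, without overlap (log2 fold change -1.44, SE 0.48, adjusted p = 0.0305). The value without control replicate 2, at 1361 CPM, was -0.98 (adjusted p = 0.137), and the call was also lost without Notch RNAi replicate 1 (0.0901) or 3 (0.0928). In germ-free flies the libraries overlapped, with 675, 204 and 336 CPM in Notch RNAi and 586 and 317 CPM in control (adjusted p = 0.851).

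The 2 most abundant members, Jon65Aiii and Jon65Aiv, differed in their calls, and the difference between their fold changes was not tested. Jon65Aiv had 1140, 1970 and 1494 CPM in germ-free Notch RNAi libraries, against 6015 and 2642 CPM in germ-free control libraries (log2 fold change -1.50, SE 0.48, adjusted p = 0.033). With L. brevis it had 1807, 769 and 1981 CPM in Notch RNAi libraries, against 3636, 2757 and 3119 CPM in control libraries. Neither pair of groups overlapped, and the second missed the threshold (log2 fold change -1.06, SE 0.44, adjusted p = 0.073). Without germ-free control replicate 1, at 6015 CPM, the germ-free log2 fold change was -0.78 (adjusted p = 0.367), and the call was also lost without Notch RNAi replicate 1 (0.0989) or 3 (0.0853). Averaged over the conditions Jon65Aiv was at -0.90 (SE 0.26, adjusted p = 0.0114), and at -0.66 without that control library (adjusted p = 0.0601).

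Jon65Aiii was not called in any Notch RNAi comparison. Its libraries with L. brevis had 1645, 671 and 1769 CPM in Notch RNAi and 2022, 1745 and 2014 CPM in control, with a log2 fold change of -0.50 (SE 0.48, adjusted p = 0.436). In germ-free flies it had 1083, 1724 and 1279 CPM in Notch RNAi libraries, against 3859 and 1796 CPM in control libraries (log2 fold change -1.05, SE 0.53, adjusted p = 0.154). The germ-free groups did not overlap, but the gap between 1724 and 1796 CPM was narrow.

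Jon66Ci and Jon66Cii, the facing pair at 66C, had the highest log2 fold changes of all members in germ-free flies. Jon66Ci had 40.3, 2.59 and 12.4 CPM in germ-free Notch RNAi libraries, against 2.21 and 1.47 CPM in germ-free control libraries, which is 73 and 34 reads (log2 fold change 3.30, SE 1.12, adjusted p = 0.0419). The lowest Notch RNAi library lay just above the highest control library, and the call was lost in 4 of the 5 fits that each left out 1 of these libraries (adjusted p between 0.0554 and 0.201 in those 4). With bacteria the genotypes overlapped for this gene. By edgeR, Jon66Cii was called for the mean over conditions and in no single condition, at 2.14 (SE 0.67, adjusted p = 0.017), a call lost without germ-free control replicate 2 (adjusted p = 0.0674). Its germ-free libraries had 22.9, 0.67 and 5.37 CPM in Notch RNAi and 1.52 and 0.518 CPM in control, so the groups overlapped, and DESeq2 called this difference (adjusted p = 0.0162). With L. plantarum Jon66Cii had 42.7, 9.28 and 30.9 CPM in Notch RNAi libraries, against 6.55, 9.52 and 5.24 CPM in control libraries, where 2 of 3 Notch RNAi libraries stood above every control library.

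Jon44E, Jon65Ai and Jon65Aii, a single gene and the 2 neighbours at the end of the 65A cluster, were not called in any comparison of genotypes. Jon65Aii with L. plantarum was at 758, 220.5 and 245 CPM in Notch RNAi libraries, against 96.4, 173 and 212 CPM in control libraries. These groups did not overlap (log2 fold change 1.35, SE 0.70, adjusted p = 0.166). Jon65Ai in germ-free flies ran the other way, at 29.1, 3.18 and 18.4 CPM in Notch RNAi and 66.1 and 31.5 CPM in control (log2 fold change -1.54, SE 0.91, adjusted p = 0.226). Jon44E with L. brevis had 23.5, 16.1 and 31.8 CPM in Notch RNAi and 36.6, 79.8 and 35.3 CPM in control (log2 fold change -1.09, SE 0.64, adjusted p = 0.196).

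**Figure D2:**
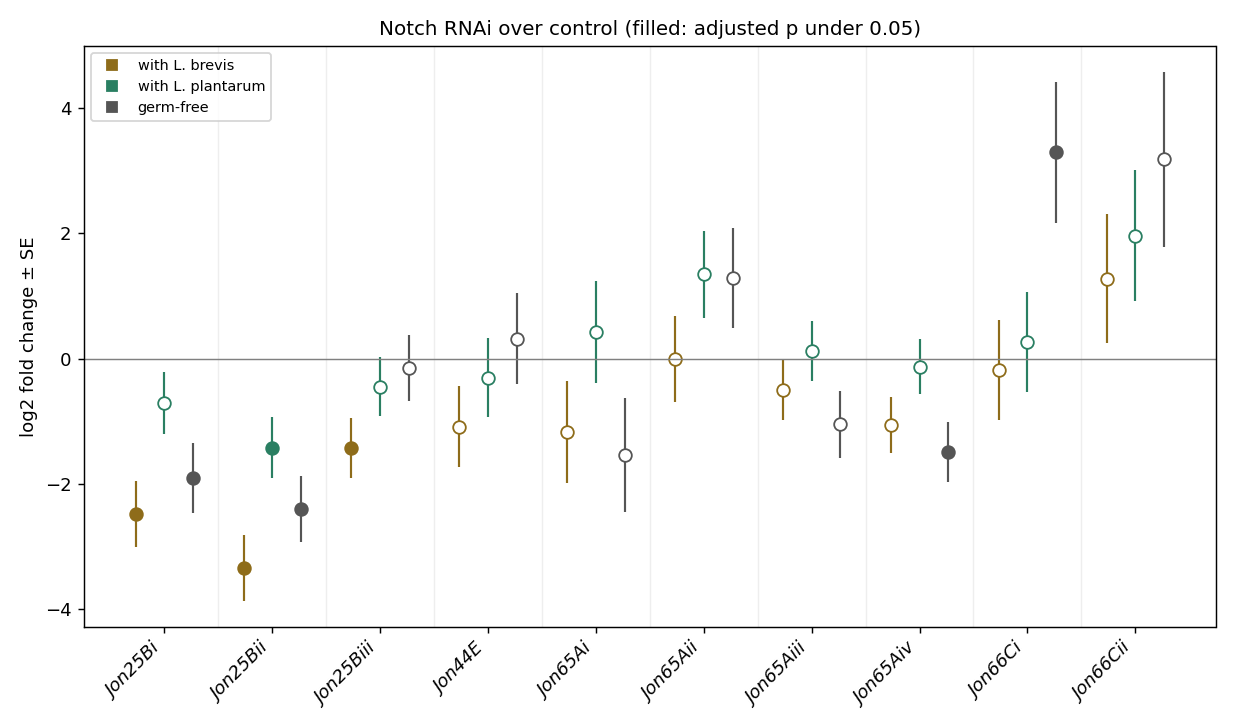
Log2 fold change of each Jonah gene, Notch RNAi over control, with its SE as a bar, for flies with L. brevis, flies with L. plantarum and germ-free flies; filled points have an adjusted p under 0.05. Jon25Bi, Jon25Bii, Jon25Biii and Jon65Aiv lie below 0 in all 3 conditions, while Jon66Cii lies above 0 in all 3 without a call.

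Over the members, 0 were called higher and 3 lower in Notch RNAi flies with L. brevis (Jon25Bi, Jon25Bii and Jon25Biii), in a comparison that called 42.6% of all genes tested, 22.3% higher and 20.3% lower. With L. plantarum 0 were called higher and 1 lower, beside 33.8% of all genes, 17.6% higher and 16.2% lower. In germ-free flies 1 was called higher (Jon66Ci) and 3 lower (Jon25Bi, Jon25Bii and Jon65Aiv), beside 32.2% of all genes, 17.5% higher and 14.7% lower. Fitted on the 5 germ-free libraries alone, 0 members were called, the smallest adjusted p being 0.0527 for Jon65Aiv. The share of members called was thus near the share of all genes in germ-free flies and below it in the other conditions. For the mean over the conditions 1 was called higher and 3 lower, beside 56.6% of all genes, 29.6% higher and 26.9% lower. The median log2 fold change over the 10 members was -1.07 with L. brevis, -0.01 with L. plantarum and -0.61 in germ-free flies, beside 0.00, 0.04 and 0.01 over all genes tested. With L. brevis 5 members had Notch RNAi libraries wholly below the control libraries and 0 wholly above, where 51.4% of all genes did not overlap in either direction and 24.7% were wholly below.

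In the authors' deposited table, 4 members passed a false discovery rate (FDR) of 0.05 with L. brevis, all lower in Notch RNAi: the 3 genes named above and Jon65Aiv. That table called 45.9% of its 10201 genes. For germ-free flies the authors' deposited table gave 3 lower and 2 higher, the added gene being Jon66Cii (FDR 0.0263), beside 35.3% of its genes. With L. plantarum the authors' deposited table gave Jon25Bii alone, beside 36.4% of its genes.

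Whether the Notch RNAi effect differed between bacterial conditions was tested with 3 interaction terms, and edgeR and DESeq2 each called 0 members in all 3. The edgeR background was 0.798% of genes for L. brevis against germ-free, 0.0255% for L. plantarum against germ-free and 0.017% for L. brevis against L. plantarum. DESeq2 called 4.18%, 1.37% and 0.474% of the genes it tested, in that order. At an unadjusted p under 0.05 by edgeR the counts were 1, 1 and 2 members in that order of comparisons. The share of all genes at that unadjusted threshold was not counted, so these counts have no background and are not read as a result. The unadjusted hits were Jon66Ci for L. brevis against germ-free (difference of log2 fold changes -3.48, SE 1.36, adjusted p = 0.251) and for L. plantarum against germ-free (-3.04, SE 1.35, adjusted p = 0.399). For L. brevis against L. plantarum they were Jon25Bi (-1.77, SE 0.71, adjusted p = 0.49) and Jon25Bii (-1.92, SE 0.68, adjusted p = 0.44). A Notch RNAi effect of Jon25Bi that passed with L. brevis and not with L. plantarum is therefore not shown to differ between the 2.

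The second question is how bacteria altered the genes within a genotype. In control flies, the libraries with bacteria were wholly above the germ-free libraries for the same 5 genes under both bacteria, Jon25Biii, Jon44E, Jon65Aii, Jon66Ci and Jon66Cii. Both comparisons use the same 2 germ-free libraries, and some gaps were narrow. The lowest Jon65Aii library with L. plantarum was at 96.4 CPM, against 95.2 CPM in the highest germ-free control library. For Jon25Biii the lowest were at 624 CPM with L. brevis and 632 CPM with L. plantarum, against 586 CPM. Ranges that did not overlap, in either direction, were found for 40.2% of all genes with L. brevis and for 31.1% with L. plantarum, and ranges wholly above for 21.6% and 17.6% in that order. The other 5 members overlapped under both bacteria.

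Jon66Ci had the widest difference. Control libraries had 13.2, 39.8 and 42.3 CPM with L. brevis and 42.7, 44.2 and 46.0 CPM with L. plantarum, against 2.21 and 1.47 CPM in germ-free control libraries. With L. plantarum the 3 libraries lay within 4 CPM of each other, while the germ-free pair was far below. By edgeR the log2 fold change over germ-free was 4.08 with L. brevis (SE 1.15, adjusted p = 0.0515) and 4.56 with L. plantarum (SE 1.17, adjusted p = 0.126), so neither was called. DESeq2 called both, with adjusted p-values of 0.000394 and 0.000197, and the authors' deposited table lists the L. plantarum comparison at an FDR of 0.00267. Notch RNAi libraries had 38.6, 8.0 and 37.3 CPM with L. brevis and 79.0, 32.1 and 47.9 CPM with L. plantarum, which overlapped their germ-free libraries at 40.3, 2.59 and 12.4 CPM.

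Jon66Cii followed the same order at lower level, with 3.98, 8.93 and 7.83 CPM with L. brevis and 6.55, 9.52 and 5.24 CPM with L. plantarum in control libraries, against 1.52 and 0.518 CPM in germ-free ones. The germ-free values are 50 and 12 reads, and neither comparison was called (adjusted p = 0.244 and 0.392). Jon44E had 36.6, 79.8 and 35.3 CPM with L. brevis and 43.6, 46.2 and 50.6 CPM with L. plantarum, against 19.9 and 8.73 CPM in germ-free control libraries. Its log2 fold changes of 1.81 (SE 0.76, adjusted p = 0.164) and 1.70 (SE 0.76, adjusted p = 0.336) were not called. Jon65Aii had 442, 332 and 140.0 CPM with L. brevis, against 95.2 and 46.8 CPM in germ-free control libraries (log2 fold change 2.10, SE 0.83, adjusted p = 0.143). DESeq2 called this Jon65Aii difference (adjusted p = 0.0441).

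Counted over the members, edgeR called 0 in each of the 6 comparisons between bacterial conditions. In control flies the background was 7.97% of genes for L. brevis against germ-free, 0.161% for L. plantarum against germ-free and 2.81% for L. brevis against L. plantarum. At an unadjusted p under 0.05 these had 3, 2 and 0 members, and DESeq2 called 2, 1 and 0, where it called 13.4%, 3.01% and 8.23% of the genes it tested. In Notch RNAi flies the background was 9.36%, 0.136% and 14.4% of genes for the same 3 comparisons. There 0, 1 and 1 members had an unadjusted p under 0.05, and DESeq2 called 0 in each, beside 15.5%, 1.40% and 23.2% of its genes. The share of all genes at the unadjusted threshold was not counted, so the unadjusted counts in both genotypes have no background. An adjusted p above the threshold does not show that levels were alike: the SE of a member's log2 fold change was between 0.44 and 1.38 in these 6 comparisons.

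**Figure D3:**
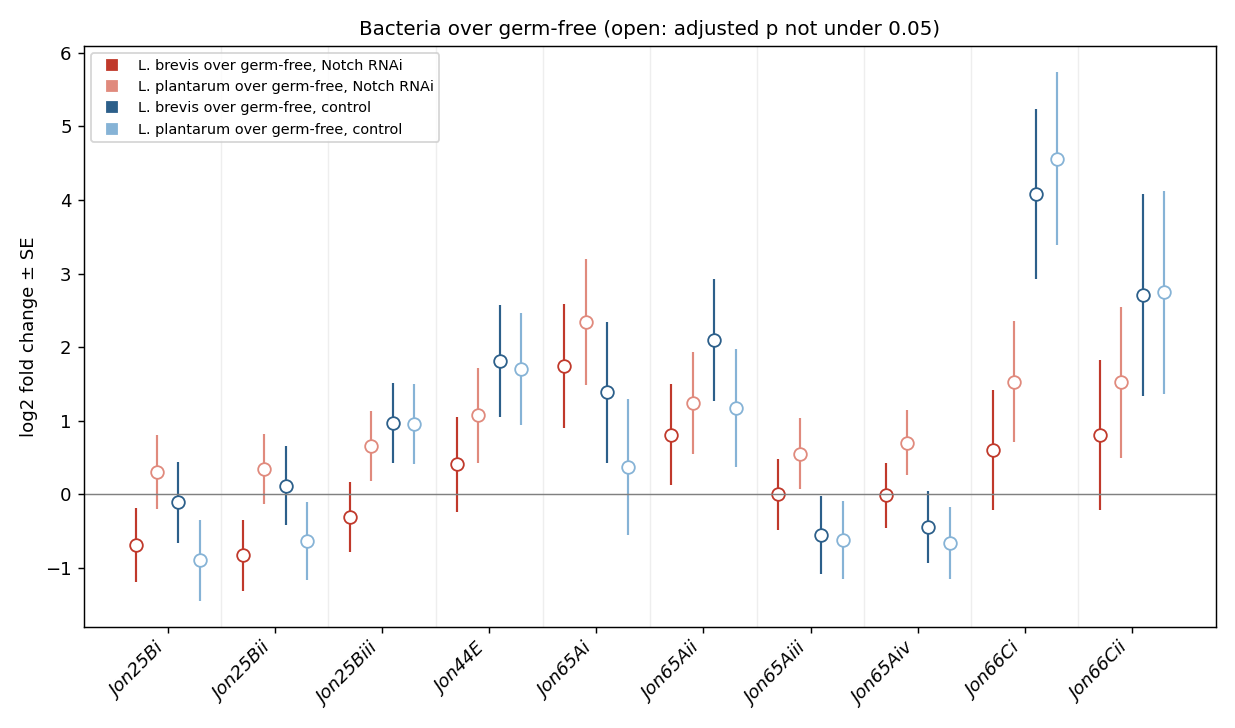
Log2 fold change of each Jonah gene with L. brevis or L. plantarum over germ-free flies of the same genotype, with its SE as a bar; open points have an adjusted p that is not under 0.05. All 40 points are open, and those of Jon66Ci in control flies are the highest at 4.08 and 4.56.

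Between the 2 bacteria, all 10 members had a negative log2 fold change for L. brevis over L. plantarum in Notch RNAi flies, between -1.17 and -0.43, with a median of -0.72 beside -0.01 over all genes. Set over germ-free Notch RNAi flies, L. plantarum gave 10 positive values (median 0.89) and L. brevis 5 positive and 5 negative (median 0.20). The highest with L. plantarum was Jon65Ai at 2.34 (SE 0.86, adjusted p = 0.374), without overlap but not called. The members share libraries, so these are not 10 separate observations: Notch RNAi replicate 1 with L. plantarum was the highest of its group for all 10 genes. For L. brevis over L. plantarum in control flies 8 of 10 were positive, with a median of 0.16 beside 0.01 over all genes.

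The order of the 6 groups for each gene was read against the spread. Neighbouring groups in the order of means overlapped in 44 of 50 cases. The lowest group was Notch RNAi with L. brevis for Jon25Bi, Jon25Bii, Jon25Biii, Jon65Aiii (within 1 CPM of germ-free Notch RNAi) and Jon65Aiv, and germ-free control for Jon44E, Jon65Aii, Jon66Ci and Jon66Cii. Jon65Ai was lowest in germ-free Notch RNAi flies. For Jon25Bii the 3 control groups all lay above the 3 Notch RNAi groups. Germ-free control libraries of Jon66Ci lay below every library of the next group, germ-free Notch RNAi, but narrowly (2.21 against 2.59 CPM). Those of Jon66Cii lay below the next group in the order of means, control with L. brevis. They overlapped germ-free Notch RNAi, whose lowest library was at 0.67 CPM against a highest control of 1.52 CPM.

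Ratios between neighbouring genes within a library do not depend on its depth. Jon65Aiv over Jon65Aiii, per kb of exon, was 1.06 to 1.11 in Notch RNAi and 1.50 to 1.74 in control libraries with L. brevis. In germ-free flies it was 1.02 to 1.13 in Notch RNAi and 1.42 to 1.51 in control libraries. With L. plantarum the ranges of 1.11 to 1.42 in Notch RNAi and 1.32 to 1.69 in control libraries overlapped. The 2 genes therefore kept a close ratio in each library while their own levels varied, and the ratio was lower in Notch RNAi libraries in 2 of 3 conditions.

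Jon25Bi over Jon25Bii was 1.99 to 2.94 in Notch RNAi and 1.17 to 1.54 in control libraries with L. brevis. With L. plantarum it was 1.61 to 2.85 in Notch RNAi and 1.32 to 1.44 in control libraries, and in germ-free flies 1.71 to 2.77 in Notch RNAi and 1.60 to 1.63 in control libraries. The ranges were separate in all 3 conditions, so Jon25Bii was the lower of the pair relative to its neighbour in each Notch RNAi group. Jon66Ci over Jon66Cii was 1.50 to 3.06 in Notch RNAi and 3.27 to 5.35 in control libraries with L. brevis, and 1.53 to 3.42 in Notch RNAi and 4.60 to 8.70 in control libraries with L. plantarum. In germ-free flies the ratios of this pair overlapped, at 1.74 to 3.84 in Notch RNAi and 1.45 to 2.81 in control libraries. These pairs were chosen with their levels known, and no test was made of the ratios.

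**Figure D4:**
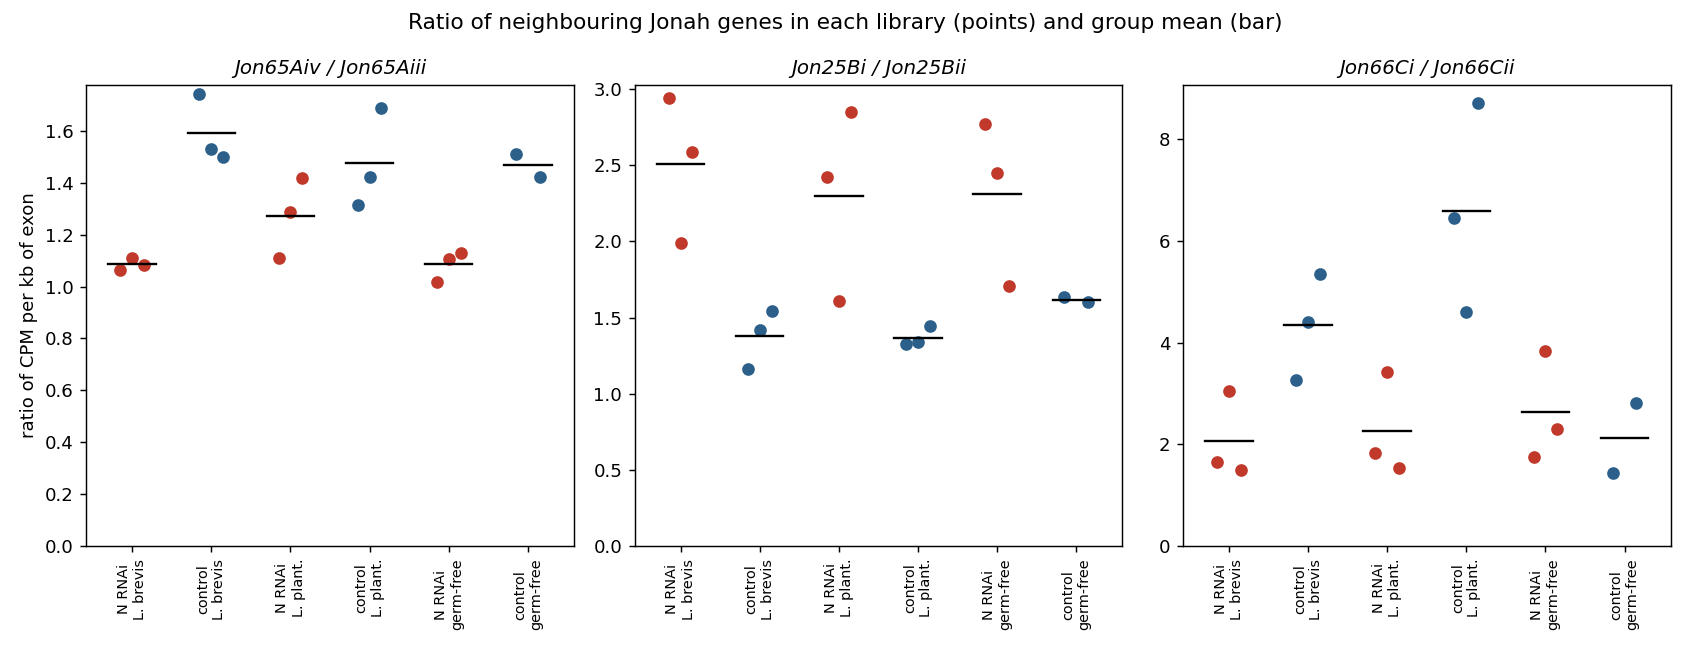
Ratio of CPM per kb of exon between neighbouring Jonah genes in each library (points; Notch RNAi red, control blue) with the group mean as a bar, on axes that start at 0. Jon25Bi over Jon25Bii is higher in Notch RNAi than in control libraries in all 3 conditions, and Jon65Aiv over Jon65Aiii is lower without overlap with L. brevis and in germ-free flies.

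Replicates varied together in a structured way. In germ-free control flies replicate 1 was above replicate 2 for all 10 members. In germ-free Notch RNAi flies the family split: replicate 1 was highest and replicate 2 lowest for Jon25Biii, Jon44E, Jon65Ai, Jon65Aii, Jon66Ci and Jon66Cii, while replicate 2 was highest and replicate 1 lowest for Jon25Bi, Jon25Bii, Jon65Aiii and Jon65Aiv. The spread was widest for Jon66Cii, from 0.67 to 22.9 CPM, and that of Jon44E ran from 4.60 to 39.1 CPM.

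Deviations of log2 CPM from the group mean were correlated over the 17 libraries as a description, with no test, since libraries share depth and composition. Within the set of Jon25Bi, Jon25Bii, Jon65Aiii and Jon65Aiv, Pearson's r ran from 0.63 to 0.98 over 6 pairs. Within the set of the other 6 genes it ran from 0.46 to 0.96 over 15 pairs. Between the sets it ran from -0.51 to 0.20 over 24 pairs, with a median of -0.13. The opposition between the sets rested on the germ-free Notch RNAi flies: without those 3 libraries 23 of the 24 values were positive, with a median of 0.29. The division into sets was also weaker without them. The lowest r within the set of 6 genes was then 0.04, and the highest between the sets was 0.65. The closest pairs were neighbours on the chromosome, Jon65Aiii with Jon65Aiv (0.98), Jon66Ci with Jon66Cii (0.96), Jon25Bi with Jon25Bii (0.90) and Jon65Ai with Jon65Aii (0.88). Over all 17 libraries the sets nevertheless cut through clusters, since Jon25Biii varied apart from its 2 neighbours and Jon65Ai and Jon65Aii apart from theirs. Both sets were drawn after the values were seen.

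**Figure D5:**
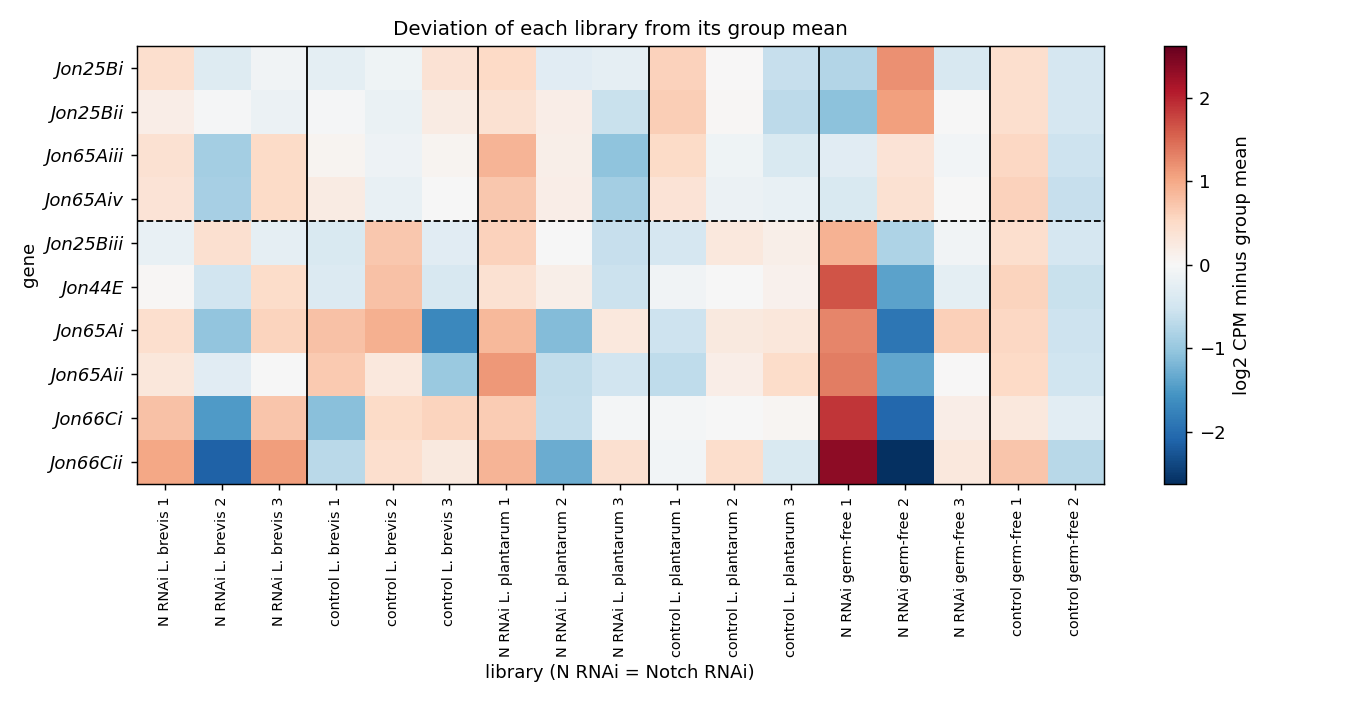
Deviation of each library's log2 CPM from its group mean (colour, red above and blue below) for the 10 Jonah genes in rows and the 17 libraries in columns, with the sets of genes parted by a dashed line. In the germ-free Notch RNAi columns, replicates 1 and 2 deviate in opposite directions in the rows above and below the dashed line.

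The 6 other Jonah genes (Jon74E, Jon99Ci, Jon99Cii, Jon99Ciii, Jon99Fi and Jon99Fii) were all measured, and for the mean over conditions 0 were called higher and 5 lower in Notch RNAi flies, with a list median of -1.14 beside 0.02 over all genes. Over all genes tested, 29.6% were called higher and 26.9% lower for that mean. The largest fall was that of Jon99Cii at -1.45 (SE 0.25, adjusted p = 0.000264), and Jon99Ci at -0.09 (adjusted p = 0.785) was not called. Within groups Jon99Ci varied most like Jon65Aiii (r = 0.92) and Jon99Fi most like Jon44E (r = 0.95), over 17 libraries.

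Among 11 trypsins, the other large family of secreted midgut serine proteases, 0 were called higher and 7 lower for the mean over conditions (list median -0.95), with betaTry at -1.86 (SE 0.30, adjusted p = 0.000166). In single conditions 5 trypsins were lower with L. brevis, 0 with L. plantarum and 3 in germ-free flies, beside 20.3%, 16.2% and 14.7% of all genes. For the mean over conditions, the background for each list in this paragraph was 56.6% of all genes called, 29.6% higher and 26.9% lower. Of 7 other midgut serine proteases 6 were in the table and 3 passed the filter, and 1 of these, yip7, fell (-1.31, SE 0.27, adjusted p = 0.00126). Of 13 carbohydrate enzymes (amylases and maltases), 3 were higher and 5 lower for the mean over conditions (list median 0.18). Amyrel, an amylase-related gene, was at 2.20 (SE 0.38, adjusted p = 0.00032) and Mal-B2, a maltase, at -1.77 (SE 0.41, adjusted p = 0.00177). Of 10 enterocyte regulators and markers, 1 was higher and 5 were lower (list median -0.39). The regulator cad, known to act in the posterior gut, was at 1.49 (SE 0.11, adjusted p = 1.16e-08), while nub, an enterocyte transcription factor, was at -0.87 (SE 0.26, adjusted p = 0.0112). GATAe, which is needed for midgut gene expression, was at -0.02 (SE 0.06, adjusted p = 0.757).

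Outside the lists, genes were ranked by a correlation over the 17 libraries, among 7165 genes with a mean of at least 10 CPM. It set each gene's deviations of log2 CPM from the group mean against the mean deviation of the 10 members, each divided by its SD. Differences between groups therefore play no part in these values of r. The 5 most alike were CG5346 (r = 0.96), CG8952 (0.94), CG15739 (0.92), Fst (0.91) and Inx7 (0.90). The members themselves had r between 0.08 for Jon25Bii and 0.75 for Jon44E with that mean, so the mean describes some members poorly.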

How the data were processed

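Whole-number read counts per gene were deposited by the authors for 17 libraries. Per the submitters' processing notes, FastQC, Trimmomatic, HISAT2, SAMtools and edgeR were used. The counting tool, strand setting, build and annotation are not given in the sources used here. In 8 tables of comparisons, the log2 fold changes, average log2 CPM, p-values and FDR are the authors' deposited values. All count columns matched a sample (0 unmatched), and 17599 of 17737 identifiers matched a symbol.

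Counts were analysed with edgeR 4.0.16 in R 4.3.3. The function filterByExpr by group kept 11786 genes holding 99.98% of the counts, TMM scaling gave factors of 0.896 to 1.12, and the robust quasi-likelihood test was run on 1 fit of all libraries with 13 contrasts. P-values were adjusted by Benjamini-Hochberg over all genes tested. Each SE is the size of the log2 fold change over the square root of F. CPM are TMM-scaled counts per 1e+06, and log2 CPM used a prior count of 2. The common dispersion corresponds to a biological coefficient of variation of 0.230. The labels name no molecular identifiers. No replicate pair was a copy: chi-square over its degrees of freedom was 28.2 to 217. The fit was tested on simulated data.

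Alternatives were DESeq2 1.42.0, RLE scaling, no filter, the compared groups alone, a replicate block, no ribosomal RNA genes (138) and leaving out each library. The members, the gene lists and the rule for genes most alike (the 5 highest r) were chosen with earlier results of these data known. Sequences of the genes were not analysed here. Of 6 progenitor markers, 4 were matched, and the others were not analysed here.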

Additional observations from a re-analysis of the deposited data

Results flagged for a closer look

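Jon25Bii differed in direction between genotypes when L. brevis was set against L. plantarum. In Notch RNAi flies its log2 fold change was -1.17 (SE 0.49, adjusted p = 0.119), with all 3 libraries with L. brevis below all 3 with L. plantarum. In control flies it was 0.75 (SE 0.48, adjusted p = 0.394), with all 3 above. The interaction term for this difference was -1.92 (SE 0.68) and was not called by edgeR's quasi-likelihood test (adjusted p = 0.44). The authors' deposited table lists the Notch RNAi difference as called (FDR 0.0465), where it called 17.6% of its genes.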

How the results depend on the processing

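Of 336 values of 22 named gene comparisons under the alternatives, 285 kept their direction and side of the threshold, 32 lost a call, 19 gained one and 0 changed sign. Each of the 22 was called in the main fit or under at least 1 alternative, so they do not stand for all comparisons. Over all 130 comparisons of members, 2 changed sign with RLE scaling, 2 without ribosomal RNA genes, 2 with DESeq2 and 4 with the replicate block. The largest main log2 fold change among these was 0.11 in size. RLE scaling and leaving out ribosomal RNA genes moved the median gene by at most 0.04 (log2). With germ-free flies, 4 members were called between genotypes, against 2 without the filter on low counts, 2 with the replicate block and 0 when the compared groups were fitted alone. Leaving out 1 library gave 0 to 5, with 0 without control replicate 1 and 1 without Notch RNAi replicate 1 or 3. With L. plantarum the count of 1 became 0 without the filter and 0 with the replicate block, and 0 to 1 on leaving out 1 library. With L. brevis it was 2 to 3, and for the mean over conditions 3 to 6. Fitted alone, the compared groups gave 1 call (Jon25Bii) for L. brevis against L. plantarum in Notch RNAi flies and 1 (Jon66Ci) for L. plantarum against germ-free controls. DESeq2 gave 2 calls for L. brevis and 1 for L. plantarum against germ-free controls. Between genotypes it gave 4 with L. brevis (edgeR 3), 5 in germ-free flies (edgeR 4) and 6 for the mean over conditions (edgeR 4). In these comparisons DESeq2 called 38.9%, 32.5% and 49.6% of the genes it tested, in that order. The cause of these changes was not tested. Whether the replicate numbers pair the samples was not settled, and the main fit did not pair them. Libraries with the same number had correlated deviations of -0.12 to 0.18, over 0.1 in 5 of 24 pairs. Those with different numbers had -0.26 to 0.26, over 0.1 in 6 of 48 pairs. Of 18 libraries, 9 correlated best with their own number. The replicate block gave 3 calls for the mean over conditions, where that of Jon66Cii was lost. An alternative chosen after seeing the data, without the germ-free Notch RNAi libraries, turned the median correlation between the 2 sets of genes from -0.13 to 0.29. It moved that within the first set to 0.74 and within the second to 0.53. Depth limits Jon66Cii most, whose lowest count was 12.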
